A study of Homo sapiens with 8 samples.

Results

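The stretch of a label chase between 2 h and 8 h was examined in THP-1, a human monocytic leukaemia line, gene by gene across the whole 3′ end count table. Members were the genes with a mean total of at least 100 reads in the 8 h and 2 h libraries, each represented by its most covered 3′ UTR segment, which gave 8455 genes of the 15380 with a read in any of the 8 libraries. Of the members, 8166 held at least 20 labelled reads at 2 h and received a labelled fold change, and 289 held fewer. All cells of both groups had received 30 uM 4-thiouridine (4sU) for 12 h, with the medium changed every 3 h during this pulse, and were then washed into medium with 3 mM uridine. The 8 h group is 1 library harvested 8 h into that chase, and the 2 h group is 1 library harvested 2 h into it. Further libraries, 1 each, came from cells that never received 4sU and from 0 h, 20 min, 40 min, 1 h and 12 h of chase, and they are given here as values beside the comparison. Labels name no added drug or engineered genotype, and they do not say whether the times came from separate cultures. With 1 library per time no test between times was possible, so changes are described by fixed folds. Each interval is a 95% exact interval for counting error only and does not cover variation between cultures or libraries. Reads were not counted by molecular identifier, so duplicate reads could make the intervals too narrow even for counting error.

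In SLAM-seq, 4sU is built into RNA while it is being transcribed, iodoacetamide alkylates it, and reverse transcription then writes a C where the labelled uridine stood. A read with such T-to-C changes is called labelled here and stems from RNA made while 4sU was present. Once 4sU left in the cells has run out, labelled molecules can be lost but not replaced, whereas the unlabelled pool loses its older molecules and gains those made during the chase. Messenger RNAs of transcription factors, cytokines and feedback inhibitors are known for fast decay, in part through AU-rich elements in the 3′ UTR that recruit deadenylases. Messenger RNAs for ribosomal proteins, respiratory chain subunits and other housekeeping machinery are known for slow decay.

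The AU-rich heptamer searched for was TATTTAT, on the transcript strand only, in the last 500 bases of each gene's transcript (GENCODE 29, GRCh38, written with T for U). A shorter transcript, such as RPL39 with 401 bases, was searched whole. The stretches below show its match nearest the transcript end, in capitals within 30 bases, in 5 members that lost nearly all label between 2 h and 8 h and in 1 ribosomal protein mRNA, RPL39, that lost none beyond counting error and holds the same letters.
C3orf58: tcactatcagaTATTTATtatatggcagca
TIPARP: gctttatgacaTATTTATttttttaataaa
FOS: ggattctcagaTATTTATatttttatttta
IL1B: ttaaatgggaaTATTTATaaatgagcaaat
PMAIP1: ttaccatctggTATTTATggtctaatttgt
RPL39: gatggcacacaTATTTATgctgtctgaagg
These members are shown because they hold a match. CDC42EP4, ESS2, DUSP10 and IRF1, also among the deepest losses of label, held none in the window. A match was held by 16.8% of genes whose label fell over 16-fold. These 7 letters are therefore present at both ends of the range of label loss, and a match is a description of the sequence, not evidence that a protein binds there.

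Levels are given as RPM, the reads of a gene scaled to a library of 1000000 reads in genes. Summed over genes, the 8 h library held 11224018 reads and the 2 h library 8984042 reads. Labelled reads made up 10.77% of the 8 h library (95% exact binomial interval 10.75% to 10.79%), against 27.14% of the 2 h library (27.11% to 27.17%). Across the other libraries the labelled share was 0.01214% without 4sU, 30.61% at 0 h, 30.23% at 1 h and 5.526% at 12 h, so background conversion was far below the share at either time. The share was nearly level from 0 h to 1 h, and some genes gained labelled RNA after wash-out. Labelled FOS reads came to 7.35 RPM with no chase, 162 after 40 min and 7.24 after 2 h, and those of OSR2 to 1.38 RPM with no chase, 18.4 after 1 h and 8.24 after 2 h. Labelled reads were thus still being gained early in the chase, and whether any were gained after 2 h was not tested. Of 12 monocytic markers, 11 were members, the exception being MPO with 17 reads at 8 h and 25 reads at 2 h, and the list summed to 2370 RPM at 8 h and 2630 at 2 h. None of 13 lymphoid, erythroid and epithelial markers was a member, and that list summed to 1.96 RPM at 8 h and 2.45 at 2 h, with CD3E, CD79A, HBB, HBA1 and KRT19 at 0 reads in both libraries.

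Between 2 h and 8 h most genes lost label while their total changed little, and unlabelled reads rose by about as much as labelled reads fell. Members together held 106894 labelled RPM at 8 h and 267273 at 2 h, a difference of -160380. Their unlabelled reads came to 878283 RPM at 8 h and 719115 at 2 h, a difference of 159170. The 2 differences mirror each other by construction, since each library is scaled to the same sum, and a change of RNA per cell cannot be seen on this scale. The median gene's labelled share was 6.26% at 8 h and 33.9% at 2 h. Labelled RPM fell by 2.14 on the log2 scale in the median gene, which kept 22.7% of them, and unlabelled RPM rose by 0.66. The median total change was 0.13 on the log2 scale, and 6539 of the 8455 genes kept a total within 1.5-fold. Scaling by TMM or by DESeq2 size factors lowers every log2 change of read levels by 0.13, so totals below are best read against that median.

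Called by fixed folds, labelled RPM fell at least 2-fold in 6662 of 8166 genes (81.6%) and stayed within 2-fold in 1504 (18.4%). Unlabelled RPM rose at least 1.5-fold in 4616 of 8455 genes (54.6%) and fell as far in 153 (1.81%). With TMM and DESeq2 factors, 3893 and 3854 genes rose and 232 and 242 fell. At a steady total, the labelled share at 2 h bounds how far unlabelled reads can rise. Gene lists below differ in that share. Its median at 2 h was 33.9% over all genes and 49.8% in mitosis genes. It was 9.07% in cytoplasmic ribosomal protein, 17.1% in respiratory chain and 17.4% in myeloid granule and surface genes. The labelled share fell at least 2-fold in 6783 of 8166 genes (83.1%). Total RPM rose at least 1.5-fold in 1512 genes (17.9%) and fell as far in 404 (4.78%). Crossing the labelled and unlabelled calls put 4225 genes (51.7%) in the class that lost label and gained unlabelled reads. Another 2328 genes (28.5%) lost label at a level unlabelled amount, and 109 (1.33%) lost both, or 167 and 171 with TMM and DESeq2 factors. Among genes that kept label within 2-fold, 1211 (14.8%) had level unlabelled reads, 262 (3.21%) gained unlabelled reads and 31 (0.38%) lost them. The class that kept both levels held 14.8% of the genes but 42.5% of all reads at 8 h and 48% at 2 h, with a median total of 141 RPM at 8 h and 152 at 2 h.

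**Figure D1:**
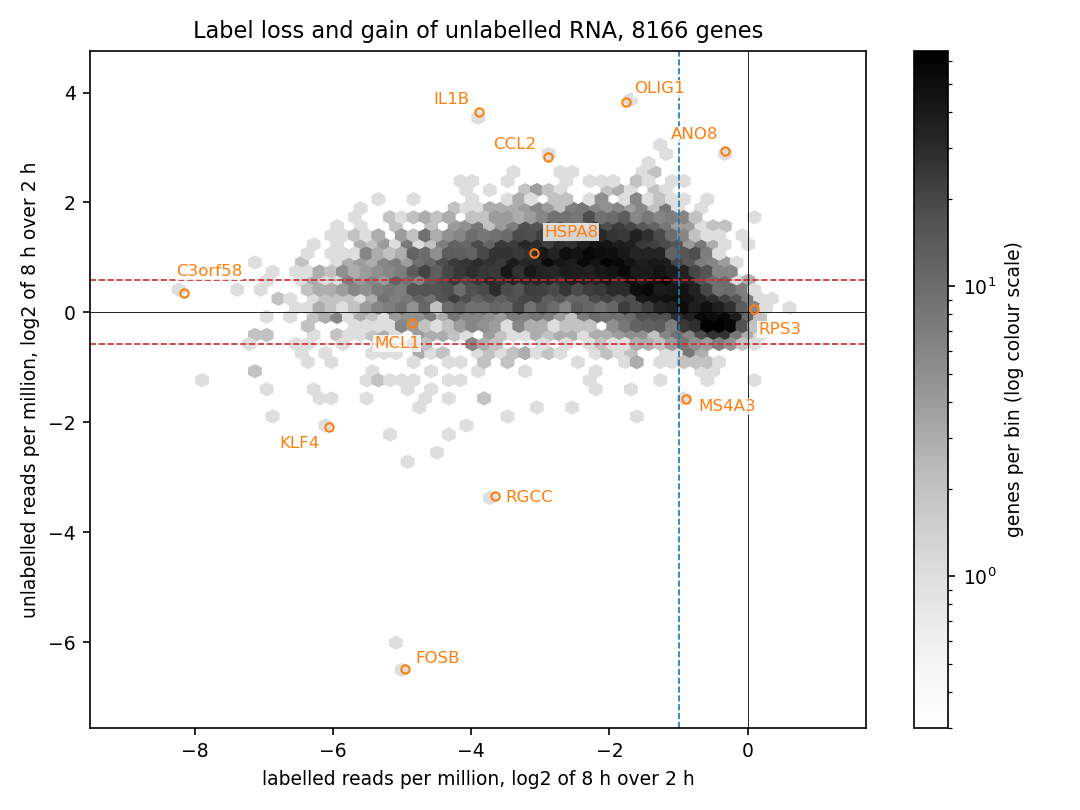
Log2 change of labelled (horizontal) against unlabelled (vertical) RPM, 8 h over 2 h, for the 8166 genes with enough labelled reads at 2 h; the grey scale gives genes per bin, the blue dashed line marks a 2-fold fall of label and the red dashed lines a 1.5-fold change of unlabelled reads. Most genes lie left of the blue line and above 0, a dense cluster with RPS3 at its edge lies near 0 on both axes, and FOSB and RGCC lie low on the vertical axis, with KLF4 in a scatter of genes under the lower red line; FOSB had no labelled read at 8 h and is drawn at 3 reads.

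How much of each gene's RNA at 8 h had been made after 2 h was calculated in a pair of ways. The net gain of unlabelled RPM alone amounted to 33.5% of the 8 h reads in the median gene. On the RPM scale it is a minimum, because unlabelled RNA of 2 h may also have decayed. A change of RNA per cell would shift it, and TMM or DESeq2 factors would lower it. If the unlabelled RNA present at 2 h had decayed at the same rate as the labelled RNA, the share made after 2 h was 82.0% in the median gene. That assumption was not tested, and the unlabelled pool of 2 h mixes RNA older than the pulse, pulse RNA without a detected conversion and RNA made in the first 2 h of chase. Read as exponential loss over the 6 h between the libraries, the fall of labelled RPM gave a median apparent half-life of 2.80 h, with a lower quartile of 1.83 h and an upper quartile of 4.78 h. Any labelled RNA made after 2 h would lengthen this value. The apparent half-life was under 2 h in 2500 genes and over 6 h in 1504.

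**Figure D2:**
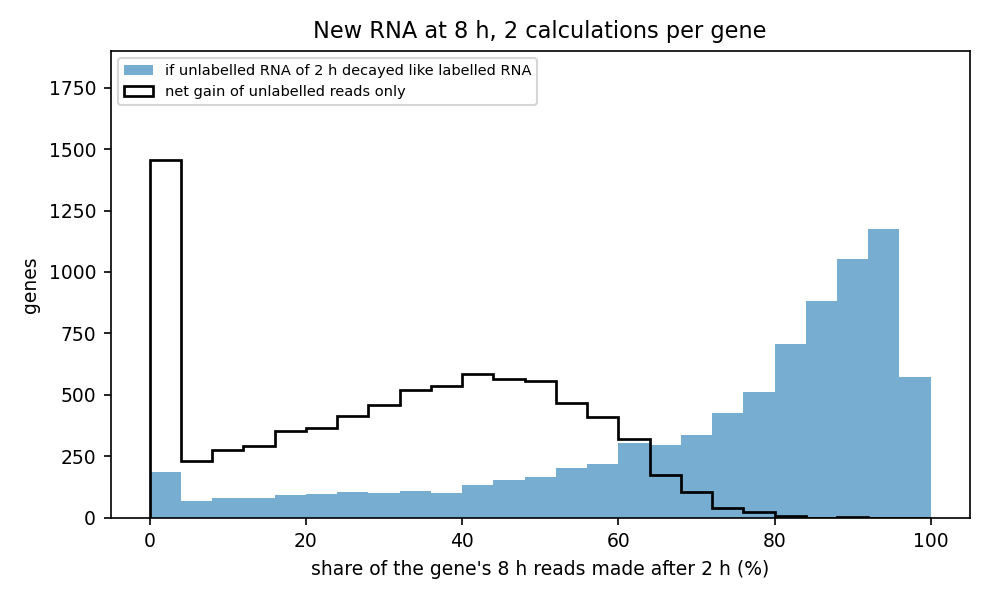
Number of genes (vertical) by the share of their 8 h reads made after 2 h (horizontal, %), calculated from the net gain of unlabelled reads (black outline, median 33.5% over all members) and under equal decay of labelled and unlabelled RNA (blue, median 82.0%), for genes with enough labelled reads at 2 h. Values below 0 are drawn at 0; under equal decay most genes lie above 60%, while the net gain spreads below 70% with a peak at 0.

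Among genes with a labelled read left at 8 h, those with the deepest fold loss of label included several regulators. Genes with none left were set to 3 reads for a fold, which lowered their rank. TFEB, with 126 labelled reads at 2 h and none at 8 h, is such a gene. C3orf58, whose counted segment starts at base 143708684 of chromosome 3 on the plus strand (hg19, as are all positions here), had 1 labelled read at 8 h and 228 at 2 h, or 0.0891 and 25.4 labelled RPM. Its label was 285-fold lower at 8 h, with an interval of 50.6 to 11300. Unlabelled C3orf58 reads came to 37.4 RPM at 8 h and 29.2 at 2 h, so nearly all of its labelled reads were gone while its total stood at 37.5 RPM at 8 h and 54.5 at 2 h. CDC42EP4, an effector of the GTPase CDC42, had 1 labelled read at 8 h and 185 at 2 h, 231-fold lower (41 to 9180). ESS2, a nuclear splicing-associated protein, had 1 labelled read at 8 h and 132 at 2 h, 165-fold lower (29.1 to 6560). DUSP10, a phosphatase that switches off stress-activated MAP kinases, had 1 labelled read at 8 h and 123 at 2 h, 154-fold lower (27.1 to 6120).

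TIPARP and IRF1 completed this set. TIPARP, an ADP-ribosyltransferase that restrains the aryl hydrocarbon receptor, had 1 labelled read at 8 h and 118 at 2 h, 147-fold lower (26 to 5870). IRF1, a transcription factor of the interferon response, had 2 labelled reads at 8 h and 230 at 2 h, 144-fold lower (39.3 to 1190). Their unlabelled reads did not move alike. ESS2 had 30.9 unlabelled RPM at 8 h and 23.3 at 2 h. Lower values at 8 h were seen for TIPARP, with 17.4 at 8 h and 38 at 2 h, and for CDC42EP4, with 19.5 at 8 h and 43.5 at 2 h. Unlabelled CDC42EP4 stood at 19.2 RPM at 1 h, so its fall at 8 h rests on the 2 h library. TIPARP total stood at 11.8 RPM with no chase, 41.7 after 1 h, 51.1 after 2 h, 17.5 after 8 h and 16.6 after 12 h, so the 2 h library held it above its level at the end of the pulse. Among all genes with enough labelled reads at 2 h, 113 had none at 8 h and 506 had 1 to 3.

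In a set of abundant genes with a steady total, labelled reads gave way to unlabelled reads. HSPA8, the constitutive HSP70 chaperone, had 48.6 labelled RPM at 8 h and 416 at 2 h, 8.55-fold lower (7.81 to 9.37). Its unlabelled reads came to 804 RPM at 8 h and 381 at 2 h, 2.11-fold higher (2.03 to 2.19), and its total was 852 at 8 h and 797 at 2 h. The net gain of unlabelled HSPA8 RPM since 2 h thus amounted to 49.5% of its level at 8 h. Under equal decay, 89.1% had been made since 2 h. NFYC, a subunit of the CCAAT-binding factor NF-Y, had 84.8 labelled RPM at 8 h and 450 at 2 h, and 879 unlabelled RPM at 8 h and 481 at 2 h. HSPA5, the endoplasmic reticulum chaperone BiP, had 46 labelled RPM at 8 h and 234 at 2 h, and 587 unlabelled RPM at 8 h and 343 at 2 h. TUBB6, a beta-tubulin, and IL6R, the interleukin-6 receptor, belong to the same set, with labelled reads 5.53-fold lower (4.98 to 6.15) in TUBB6 and 4.3-fold lower (3.96 to 4.68) in IL6R. All 5 were selected for a fall of labelled reads of at least 4-fold and for a total within 1.1-fold, so both are properties of the selection. At the labelled shares these genes had at 2 h, a rise of unlabelled reads follows from them.

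**Figure D3:**
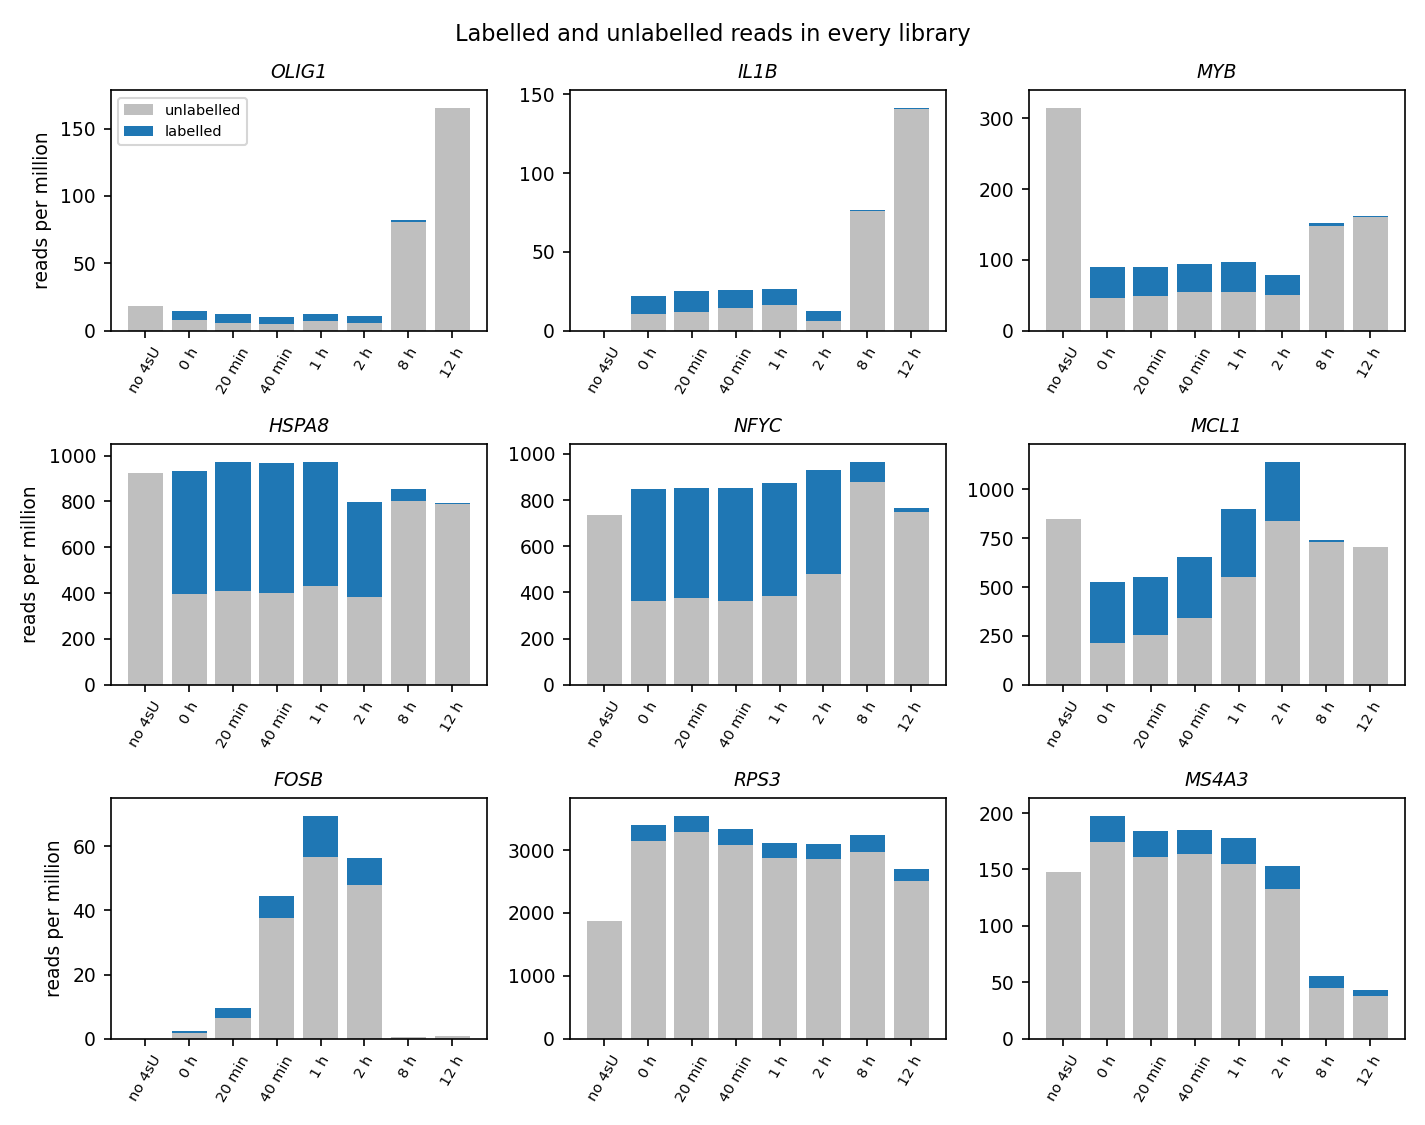
RPM (vertical) in every library (horizontal), split into unlabelled (grey) and labelled (blue) reads, for 9 genes; each bar is 1 library, so there are no error bars. HSPA8 and NFYC keep their height between 2 h and 8 h while blue gives way to grey, OLIG1 and IL1B grow grey at 8 h and 12 h, FOSB stands tall between 40 min and 2 h only, and RPS3 keeps its narrow blue part throughout.

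Among genes with a mean total of at least 200, gains of unlabelled reads were led by OLIG1 and IL1B. ANO8, at 7.62-fold higher (5.5 to 10.8), and CCL2 came next. OLIG1, a basic helix-loop-helix factor best known from oligodendrocytes, had 80.9 unlabelled RPM at 8 h and 5.68 at 2 h, 14.3-fold higher (10.7 to 19.3), from a segment starting at base 34443369 of chromosome 21 on the plus strand. Its labelled reads were 1.51 RPM at 8 h and 5.12 at 2 h. The OLIG1 total was 18.2 RPM without 4sU, 14.6 with no chase, 12.4 after 1 h, 10.8 after 2 h, 82.4 after 8 h and 165 after 12 h, so the later 2 libraries stood above all earlier ones. IL1B, the inflammatory cytokine interleukin-1 beta, had 76.2 unlabelled RPM at 8 h and 6.12 at 2 h, 12.4-fold higher (9.47 to 16.7), while its labelled reads fell 14.7-fold (5.97 to 47.1). Its total was listed at 0 without 4sU, and stood at 21.9 RPM with no chase, 12.7 after 2 h, 76.6 after 8 h and 141 after 12 h. CCL2, a chemokine that draws monocytes, had 113 unlabelled RPM at 8 h and 16 at 2 h, 7.05-fold higher (5.93 to 8.44). OLIG1, IL1B and CCL2 thus combined a loss of labelled RNA with a gain of unlabelled RNA that exceeded it.

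The other genes with the largest gains had lower levels or belonged to other processes. RB1, the retinoblastoma tumour suppressor, had 74.7 unlabelled RPM at 8 h and 11.9 at 2 h, 6.27-fold higher (5.12 to 7.74). BMP4, a growth factor of the TGF-beta family, had 36.8 unlabelled RPM at 8 h and 5.57 at 2 h, but its total went down again to 15.9 at 12 h. DTX4, a ubiquitin ligase linked to Notch signalling, had 50.7 at 8 h and 8.13 at 2 h. ANO8, a membrane protein of the anoctamin family, had 34 at 8 h and 4.45 at 2 h, and CRYBG1 had 67.2 at 8 h and 9.57 at 2 h. In these 8 genes the net gain of unlabelled RPM since 2 h amounted to between 78% (RB1) and 91.4% (IL1B) of the level at 8 h.

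Falls of unlabelled reads were fewer, and many of the deepest were in genes whose level had stood highest around 1 h to 2 h of chase. FOSB, an AP-1 transcription factor, had 0.535 unlabelled RPM at 8 h and 48 at 2 h, a level 0.0111 times that at 2 h (0.00407 to 0.0245). With no labelled FOSB read at 8 h and 75 at 2 h, its label was 31.2-fold lower counting 3 reads as the floor. The interval's lower limit was 24.8-fold. FOSB total was 2.53 RPM at the end of the pulse, 9.64 after 20 min of chase, 44.6 after 40 min, 69.4 after 1 h, 56.3 after 2 h, 0.535 after 8 h and 0.964 after 12 h. KLF4, a transcription factor of monocyte differentiation, had 10.5 unlabelled RPM at 8 h and 44.6 at 2 h, and its total was 9.99 at 0 h, 57.4 at 1 h and 62.4 at 2 h. RGCC, a regulator of cell cycle kinases, had 3.74 unlabelled RPM at 8 h and 38 at 2 h, and OSR2, a zinc-finger transcription factor, had 4.63 at 8 h and 31.2 at 2 h. RFX2, a transcription factor of ciliated cells, had a total of 10.4 at 1 h, 41.9 at 2 h and 7.66 at 8 h, and ANKRD28, a subunit of protein phosphatase 6 complexes, had 23.6 at 1 h, 80.7 at 2 h and 21.7 at 8 h. For these 2 genes the fall from 2 h therefore rests on the single 2 h library: unlabelled RFX2 reads came to 7.22 RPM at 8 h and 6.22 at 1 h, and the unlabelled change of ANKRD28 at 8 h against 1 h was 0.68 on the log2 scale.

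Other genes kept their label. RPS3, a protein of the small ribosomal subunit, had 262 labelled RPM at 8 h and 246 at 2 h, 1.07-fold higher (1.01 to 1.13), and a labelled share of 8.11% at 8 h and 7.94% at 2 h. In 31 of the 8166 genes labelled RPM were higher at 8 h, and RPS3 was the only one whose interval lay above 1. RPL39, of the large ribosomal subunit, had 17.4 labelled RPM at 8 h and 16.6 at 2 h. ATP5MF, a subunit of mitochondrial ATP synthase, had 58.4 at 8 h and 56.4 at 2 h. NRGN, a calmodulin-binding protein, had 15.9 at 8 h and 15.1 at 2 h, TRAPPC1, of a vesicle-tethering complex, had 18.4 at 8 h and 17.8 at 2 h, and MIF, a cytokine stored in monocytes, had 19.3 at 8 h and 18.8 at 2 h. Each of the 6 ratios was 0.04 to 0.09 on the log2 scale and lies below 0 when TMM or DESeq2 factors are used. Only 2 genes were more than 50% labelled at 8 h, against 640 at 2 h. These were the metallothionein MT1X, with 52.3% at 8 h and 54.5% at 2 h, and EEF1A1, the translation elongation factor, with 51.9% at 8 h and 46% at 2 h. EEF1A1 held only 472 reads at 8 h and 606 at 2 h and has many near-identical pseudogenes that can share its reads, so its values are uncertain.

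In a further set label stayed within 1.5-fold at 8 h, while the labelled share fell as unlabelled reads rose. ANO8 had 31 labelled reads in each library, 2.76 RPM at 8 h and 3.45 at 2 h, while its labelled share was 7.52% at 8 h and 43.7% at 2 h. OAS3, an antiviral enzyme that senses double-stranded RNA, had 19.9 labelled RPM at 8 h and 29.4 at 2 h, 1.48-fold lower (1.23 to 1.78). It had 180 unlabelled RPM at 8 h and 60.4 at 2 h, 2.98-fold higher (2.71 to 3.28). DHRS1, a short-chain dehydrogenase, had 40 labelled reads at 8 h and 30 at 2 h, and its unlabelled reads were 31.9 RPM at 8 h and 9.35 at 2 h. DCAF7, a scaffold protein, and STAC3, an adaptor known from muscle, had 20 and 29 labelled reads at 8 h, against 24 and 22 at 2 h. The 5 were selected for labelled reads within 1.5-fold and the largest rises of total. A fold gain of unlabelled reads above the fold change of label follows from that selection. In OAS3 label fell beyond counting error. With 20 to 40 labelled reads at 8 h in all but OAS3, the interval of the label ratio reached well beyond 1.5-fold. At 12 h against 1 h all 5 had lost label. The log2 labelled change in that pair was -2.94 in ANO8, -2.20 in OAS3, -1.81 in DHRS1 and -2.94 in STAC3. In DCAF7, with no labelled read at 12 h, it was -3.82 counting 3 reads as the floor.

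The opposite pattern, a total that fell while the labelled share changed less than 1.5-fold, was led by RGCC, MYADM, AGPAT4, MS4A3 and BEX1. MS4A3, a membrane protein of myeloid progenitors, had 10.7 labelled and 44.8 unlabelled RPM at 8 h, against 19.8 labelled and 133 unlabelled at 2 h. Its total was 197 RPM with no chase, 178 after 1 h, 153 after 2 h, 55.5 after 8 h and 43.4 after 12 h. BEX1, a small adaptor protein, had 13.1 labelled and 36.9 unlabelled RPM at 8 h, against 30.1 labelled and 87.5 unlabelled at 2 h, and its share was 26.2% at 8 h and 25.6% at 2 h. LYZ, the monocyte lysozyme, showed the same arrangement at a higher level, with 33.8 labelled and 211 unlabelled RPM at 8 h, against 53.5 labelled and 344 unlabelled at 2 h. A labelled share alone would have shown no change in BEX1 or LYZ, with LYZ at 13.8% at 8 h and 13.5% at 2 h. MYADM total was 278 at 8 h and 874 at 2 h, and AGPAT4, an acyltransferase of lipid synthesis, was 11.3 at 8 h and 31.9 at 2 h. AGPAT4 is a further gene whose fall rests on the 2 h library, since its total change at 8 h against 1 h was 0.42 on the log2 scale, above 0.

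Regulators of leukaemia cells lost label in all 30 members of their list (against 81.6% of all genes), and 21 of the 30 gained unlabelled reads (70%, against 54.6% of all genes). The list median was -3.71 for labelled and 0.86 for unlabelled reads, on the log2 scale, beside -2.14 and 0.66 over all genes. MYC, the growth-promoting transcription factor, had 2 labelled reads at 8 h and 32 at 2 h, 20-fold lower (5.1 to 172), and 18.8 unlabelled RPM at 8 h and 7.79 at 2 h. MYB, a transcription factor of blood progenitors, had 4.45 labelled RPM at 8 h and 27.2 at 2 h, 6.1-fold lower (4.48 to 8.44). It had 148 unlabelled RPM at 8 h and 50.9 at 2 h, 2.91-fold higher (2.63 to 3.24). The MYB total was 314 RPM without 4sU and 89.2 at the end of the pulse, so its 8 h level lay between these values. HOXA9, a homeobox factor of immature myeloid cells, had 4.63 labelled RPM at 8 h and 30.1 at 2 h, and 97.6 unlabelled at 8 h and 52.8 at 2 h. CEBPA, a factor of granulocyte and monocyte fate, had 3.47 labelled RPM at 8 h and 109 at 2 h, 31.2-fold lower (22.7 to 44.2), and its unlabelled reads were 3.41-fold higher (3.2 to 3.65). The CEBPA total was 2590 RPM without 4sU, 296 at 0 h and 423 at 8 h, so it remained far below its level without 4sU. CDK6, a G1 kinase, had 20.1 labelled RPM at 8 h and 144 at 2 h, 7.18-fold lower (6.23 to 8.3). GFI1, a transcriptional repressor, had 85.1 unlabelled RPM at 8 h and 22.7 at 2 h, and MEN1, the scaffold protein menin, had 86.5 at 8 h and 27.8 at 2 h. The GFI1 total was 485 RPM without 4sU, 25.8 at 0 h and 85.9 at 8 h. TET2, a DNA demethylating enzyme, was the 1 member whose unlabelled reads fell, with 6.06 RPM at 8 h and 10.5 at 2 h, but summing its distinct segments gave a change of 0.59 on the log2 scale, above 0. Of the members named here, HOXA9 and TET2 had a higher total at 8 h than without 4sU. Their totals were 102 and 7.13 RPM at 8 h, against 83.7 and 1.03 without 4sU.

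Immediate-early and feedback genes lost label in all 32 members with enough labelled reads, against 81.6% of all genes, with a median of -4.97 on the log2 scale. Their unlabelled reads went both ways: 10 of 34 members rose and 12 fell, against 54.6% and 1.81% of all genes. IER3, an early stress-response gene, had 122 unlabelled RPM at 8 h and 23.8 at 2 h, 5.12-fold higher (4.43 to 5.94). BTG2, an antiproliferative adaptor of the deadenylase complex, had 126 at 8 h and 31.5 at 2 h, 4.01-fold higher (3.53 to 4.58). FOS had 10.8 unlabelled RPM at 8 h and 16.5 at 2 h, and its total had been 160 at 20 min, 355 at 40 min and 119 at 1 h. The 2 h value of FOS thus followed an early peak. Inflammatory and NF-kB response genes lost label in 22 of 22 members and gained unlabelled reads in 18 of 24 (75%, against 54.6% of all genes). CD83, a surface protein of activated antigen-presenting cells, was the 1 that lost unlabelled reads, with 38.7 RPM at 8 h and 93.9 at 2 h.

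Apoptosis regulators lost label in 24 of 25 members (96%, against 81.6% of all genes), and 15 of 25 gained unlabelled reads (60%, near the 54.6% of all genes). MCL1, an anti-apoptotic BCL2 family member with a known short-lived mRNA, had 10.4 labelled RPM at 8 h and 303 at 2 h, 29.1-fold lower (24.1 to 35.3). Its unlabelled reads were 730 RPM at 8 h and 836 at 2 h, and its total had been 528 at 0 h, 901 at 1 h and 1140 at 2 h. BCL2, another anti-apoptotic member, had 4 labelled reads at 8 h and 62 at 2 h, 19.4-fold lower (7.19 to 73.3), and 24.3 unlabelled RPM at 8 h and 12.9 at 2 h. BCL2A1, of the same kind, had 20.4 unlabelled RPM at 8 h and 5.12 at 2 h, 3.98-fold higher (2.89 to 5.6). PMAIP1, the pro-apoptotic NOXA, had 0.713 labelled RPM at 8 h and 30.8 at 2 h, 43.3-fold lower (21.6 to 101), with unlabelled RPM of 53.2 at 8 h and 51.3 at 2 h. BAD, a pro-apoptotic BH3-only protein, was the 1 member called within 2-fold for label. It had 23 labelled reads at 8 h and 26 at 2 h, 1.41-fold lower (0.775 to 2.59). Labelled BAD reads came to 5 RPM at 1 h and 0.12 at 12 h, so its label was lost by then. All 19 p53 target genes lost label, and 7 gained (36.8%) and 3 lost unlabelled reads, against 54.6% and 1.81% of all genes. ZNF zinc-finger genes, many of them transcriptional repressors, lost label in 198 of 201 members (98.5%) at a median of -3.71 and gained unlabelled reads in 103 of 215 (47.9%).

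Mitosis genes lost label and gained unlabelled RNA in nearly every member. Label fell in 43 of 44 members (97.7%, against 81.6% of all genes) at a median of -2.20 on the log2 scale, beside -2.14 over all genes, and unlabelled reads rose in 40 of 44 (90.9%, against 54.6%) at a median of 1.47, beside 0.66. The median labelled share of these genes at 2 h was 49.8%, beside 33.9% over all genes. At a steady total, loss of label therefore raises their unlabelled reads further by arithmetic. The list summed to 7461 total RPM at 8 h and 5292 at 2 h. Its median total change was 0.48 on the log2 scale, beside 0.13 over all genes. At 12 h against 1 h it was 0.14, beside 0.12 over all genes. KIF4A, a chromosome-bound kinesin, had 94.4 unlabelled RPM at 8 h and 16.7 at 2 h, 5.65-fold higher (4.76 to 6.75). PTTG1, the separase inhibitor securin, was the 1 member within 2-fold for label, with 115 labelled RPM at 8 h and 176 at 2 h. Its unlabelled reads were 319 RPM at 8 h and 143 at 2 h. In DNA replication genes 38 of 46 lost label (82.6%, near the 81.6% of all genes) and 21 of 46 gained unlabelled reads (45.7%, against 54.6%), at a median unlabelled change of 0.56. The difference between the mitosis and replication lists was not tested. CDC6, which loads the replicative helicase, had 2 labelled reads at 8 h and 117 at 2 h, 73.1-fold lower (19.8 to 611).

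Gene expression machinery was mixed, set against the 81.6% of all genes that lost label and the 54.6% that gained unlabelled reads. Transcription elongation factors and co-activators lost label in 34 of 36 members (94.4%) and gained unlabelled reads in 29 of 37 (78.4%). ELL, an elongation factor, had 2 labelled reads at 8 h and 77 at 2 h, 48.1-fold lower (12.9 to 404). The mRNA decay machinery itself lost label in 47 of 55 members (85.5%, near the share of all genes) and gained unlabelled reads in 36 (65.5%). DDX6, a helicase of P-bodies, had 2 labelled reads at 8 h and 57 at 2 h, whereas SKIV2L, a helicase of the exosome's SKI complex, had 17 at 8 h and 20 at 2 h. The SKIV2L label was 1.47-fold lower at 8 h (0.731 to 2.99), and came to 2.78 RPM at 1 h and 0.241 at 12 h. Splicing factors lost label in 30 of 47 members (63.8%) and gained unlabelled reads in 17 (36.2%). CLK1, a kinase of splicing factors, had 0.535 labelled RPM at 8 h and 17.9 at 2 h, 33.5-fold lower (15.1 to 92.7), while SNRPF, a core snRNP protein, had 70.8 at 8 h and 78.8 at 2 h. Translation factors lost label in 26 of 43 members (60.5%) and gained unlabelled reads in 12 of 44 (27.3%).

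Cytoplasmic ribosomal protein genes kept both labelled and unlabelled levels. Of 77 members 75 kept label within 2-fold, against 18.4% of all genes, and none changed its unlabelled reads by 1.5-fold. Their medians were -0.24 for labelled and -0.25 for unlabelled reads on the log2 scale, and their labelled share was 8.72% at 8 h and 9.07% at 2 h in the median gene. Together they held 113067 RPM at 8 h and 132934 at 2 h. Nuclear-encoded respiratory chain genes kept label in 66 of 73 members, with a median labelled change of -0.38. UQCRFS1, the Rieske protein of complex III, was the member with the deepest loss, with 4.1 labelled RPM at 8 h and 28.1 at 2 h. Mitochondrial ribosomal protein genes lost label in 56 of 72 members (77.8%, near the 81.6% of all genes) at a median of -1.68 and gained unlabelled reads in 26 of 74 (35.1%, against 54.6%). MRPL34 had 5.43 labelled RPM at 8 h and 47.5 at 2 h, and 121 unlabelled at 8 h and 40 at 2 h, whereas MRPS15 had 7.04 labelled at 8 h and 8.01 at 2 h. The difference between these lists was not tested.

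Other housekeeping and myeloid lists lay between these ends. Label was kept in 18.4% of all genes. Proteasome subunit genes kept it in 21 of 34 members. PSMC6, an ATPase of the regulatory particle, had 164 unlabelled RPM at 8 h and 46.2 at 2 h, 3.56-fold higher (3.2 to 3.97), and PSMD12, a lid subunit, had 9.44 labelled at 8 h and 75.4 at 2 h, 7.98-fold lower (6.49 to 9.89). Glycolysis and glucose uptake genes kept label in 11 of 17 members. GAPDH, a glycolytic enzyme, had 82.1 labelled RPM at 8 h and 90.4 at 2 h, whereas PFKFB3, a regulator of glycolytic flux, had 1.43 at 8 h and 21.3 at 2 h. Lysosomal genes kept label in 20 of 27 members. TFEB, the transcription factor of the lysosomal programme, had no labelled read at 8 h and 126 at 2 h. Its label was 52.5-fold lower counting 3 reads as the floor, and the interval's lower limit was 42.1-fold.

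Myeloid granule and surface genes kept label in 24 of 39 members, against 18.4% of all genes, and 12 gained (30.8%) and 5 lost unlabelled reads, against 54.6% and 1.81%. ELANE, neutrophil elastase, had 46.3 labelled RPM at 8 h and 49.3 at 2 h, and 788 unlabelled at 8 h and 1003 at 2 h. PRTN3, proteinase 3, had 245 unlabelled RPM at 8 h and 454 at 2 h, and CTSG, cathepsin G, had 65.8 at 8 h and 113 at 2 h. CYBB, the catalytic subunit of the phagocyte oxidase, had 189 unlabelled RPM at 8 h and 90.6 at 2 h, 2.09-fold higher (1.93 to 2.27). ACTB, cytoskeletal actin, had 501 labelled RPM at 8 h and 714 at 2 h, and 2330 unlabelled at 8 h and 3010 at 2 h.

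Metallothioneins, small metal-binding proteins, formed the list in which label stayed within 2-fold and total fell. All 6 members kept label within 2-fold, against 18.4% of all genes, although MT1E, at -0.97 on the log2 scale, passes 2-fold with TMM or DESeq2 factors. All 6 fell at least 1.5-fold in total, against 4.78% of all genes, at a median of -0.71 on the log2 scale. Unlabelled reads fell in 5 of the 6, against 1.81% of all genes. The labelled median was -0.67, so label fell about as far as total. MT1E had 92.8 labelled RPM at 8 h and 182 at 2 h, and 203 unlabelled at 8 h and 298 at 2 h. MT1G had 9.18 labelled RPM at 8 h and 13.9 at 2 h, and 12.5 unlabelled at 8 h and 29.2 at 2 h. Their median labelled share was 37.5% at 8 h and 33.5% at 2 h. The metallothionein genes are near-identical copies of each other, so reads may have been split among them.

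**Figure D4:**
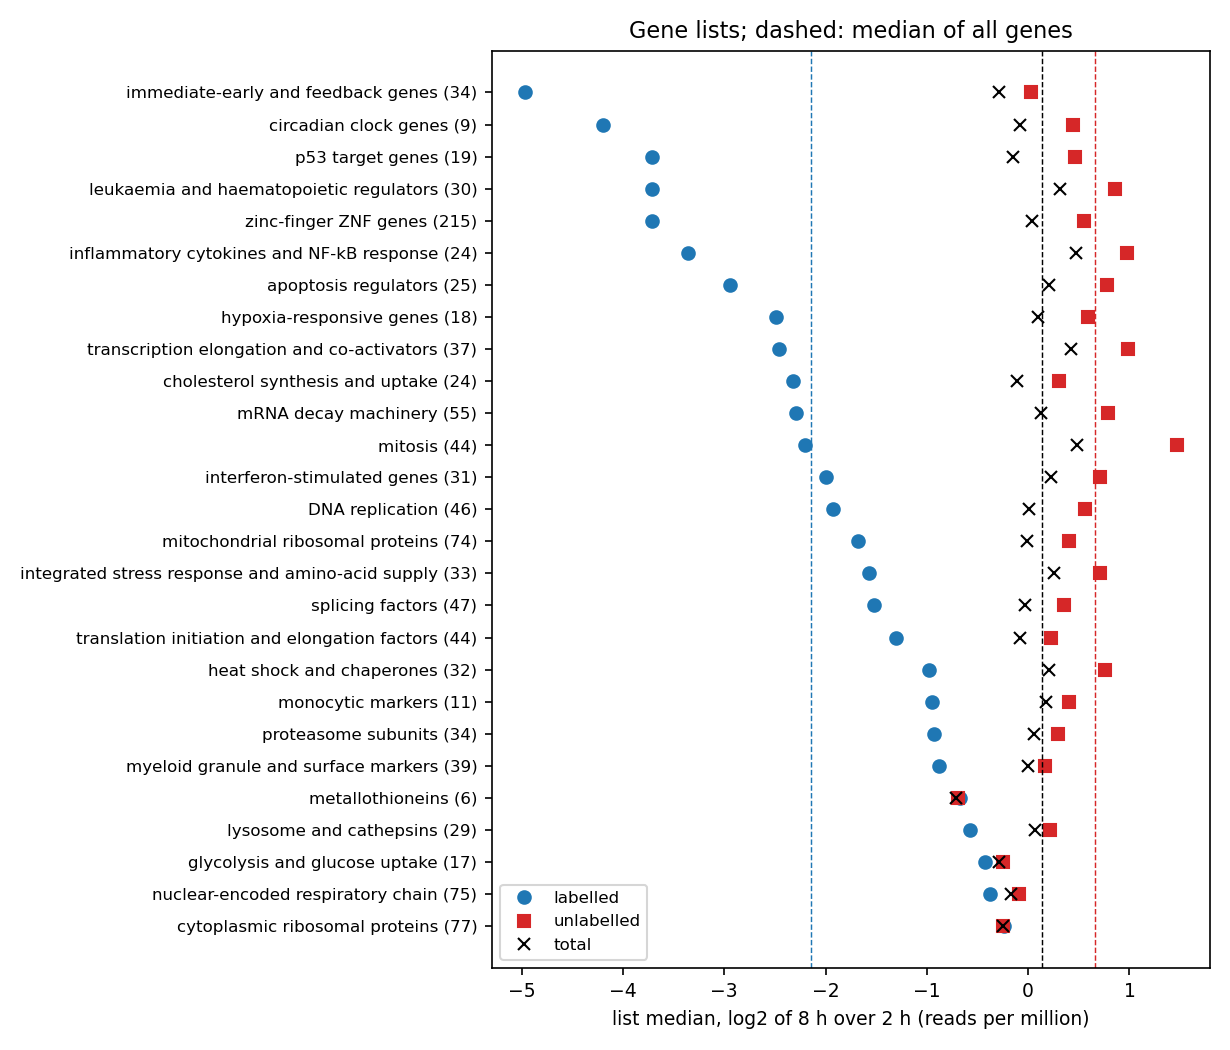
Median log2 change, 8 h over 2 h, of labelled (blue circles), unlabelled (red squares) and total (black crosses) RPM for each gene list, with the number of members in brackets, sorted by the labelled median; dashed lines mark the medians over all genes (-2.14, 0.66 and 0.13). Immediate-early genes stand at the top with a labelled median of -4.97, mitosis genes have their red square furthest right at 1.47, and ribosomal protein genes hold all symbols near -0.25.

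Sequence at the transcript end was set beside the loss of label. The AU-rich heptamer TATTTAT occurred in the last 500 bases of 14.4% of the 8124 genes with a transcript of at least 500 bases. It occurred in 16.8% of genes whose label fell over 16-fold, 17.5% at 8- to 16-fold, 16.9% at 4- to 8-fold, 12.8% at 2- to 4-fold and 8.92% at under 2-fold. The Pumilio motif TGTANATA, the letters read by the PUM family of repressors, occurred in 13.7% of all these genes, and in 19.1%, 18%, 15.2%, 11.8% and 6.4% across the same order of falls. Both shares were lower among the genes that kept label than over all genes. The median T content of the window was 31.2% in the group with the deepest falls and 27% in the group that kept label, and both motifs are rich in A and T. Transcripts shorter than the window, RPL39 among them, were left out of these shares. In short transcripts the window can reach beyond the 3′ UTR, as in RPL27, where it covers 500 of 505 bases. The median transcript had 1645 bases in the class that kept both levels, against 3126 over all genes. The part that base composition, transcript length and the left-out short transcripts play in these shares was not tested. Both motifs were searched on the transcript strand, and the same base could count towards a match of each.

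**Figure D5:**
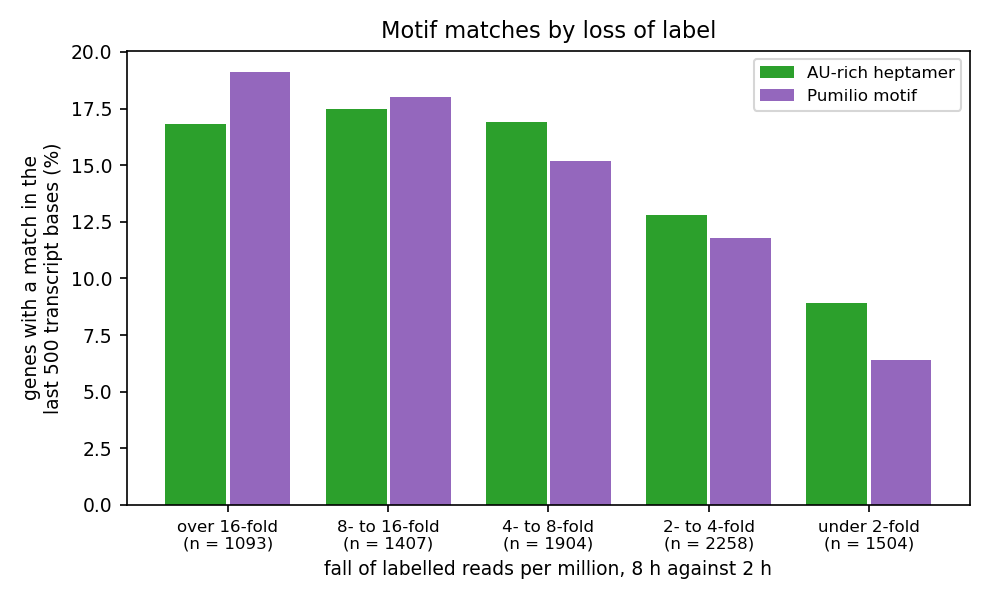
Share of genes (vertical, %) with a match to the AU-rich heptamer (green) or the Pumilio motif (purple) in the last 500 transcript bases, by the fall of labelled RPM at 8 h against 2 h (horizontal, with the number of genes). The numbers of genes include those with shorter transcripts, which are not in the shares. Both shares are lowest among genes whose label fell less than 2-fold, at 8.92% and 6.4% of 1469 genes.

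A pair of libraries that shares none with the comparison, 12 h against 1 h, was used to see whether the same genes moved. Across 8455 genes the log2 change of unlabelled reads correlated with Pearson's r = 0.84 between the pairs, and that of total reads with r = 0.82. Across 8098 genes with enough labelled reads in both pairs, the labelled change correlated with r = 0.75. These are correlations across genes, which are not independent replicates, and all 4 libraries belong to the same chase. Of the 4616 genes whose unlabelled reads rose 1.5-fold at 8 h, 4368 (94.6%) rose 1.5-fold at 12 h against 1 h, where 66.8% of all genes did. Of the 153 whose unlabelled reads fell, 81 (52.9%) fell as far at 12 h against 1 h, where 1.68% of all genes did. OLIG1, IL1B and CCL2 had unlabelled changes of 4.59, 3.09 and 3.73 in that pair on the log2 scale, and FOSB and KLF4 had -5.88 and -1.99.

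The minimum of 100 reads was met by CASC10, GPAT3 and MFSD6 exactly, with mean totals of 100.0, and missed by DIAPH3, PPP1R14C and TRIM68 with 99.5. GPAT3 just inside it had 11 labelled reads at 8 h and 24 at 2 h, and DIAPH3 just outside it had 6 at 8 h and 27 at 2 h. Genes near the minimum therefore rest on 30 labelled reads or so at 2 h, and their single folds are loosely determined.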

How the data were processed

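The authors deposited raw counts per 3′ UTR segment of a transcript, 1 column for each of 8 libraries: all reads, and the converted reads they call nascent, called labelled here. Libraries were 3′ end (QuantSeq 3′ FWD) libraries with Drosophila S2 RNA as spike-in, per the labels' protocols, which was left aside. Trim Galore 0.6.5 and bcl2fastq 2.17.1.14 are listed with hg19 and dm3, per the submitters' processing notes. Neither aligner nor counter is given in the sources used here, nor how many conversions made a read labelled, so the level of every labelled share depends on an unknown threshold.

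From the deposited counts, 64545 segments of 56570 transcripts were joined to GENCODE 29 names by transcript identifier (48045 transcripts, 84.9%). Segments without a name held 5.65% of counts, and 3056 segments off the main chromosomes were left out. Each gene was represented by its segment with the largest summed total, and 85 genes whose counts equalled those of another gene were left out. Unlabelled reads are total minus labelled reads. Levels (RPM) are counts scaled to 1000000 summed gene counts per library, from 8301033 reads (12 h) to 11224018 (8 h) in chase libraries and 2916043 without 4sU. Count ratios carry exact conditional binomial intervals and shares Clopper-Pearson intervals, computed in Python 3.11.15 with scipy 1.17.1. A gene with no read in a library was set to 3 reads for a fold. Calls were a 2-fold change for labelled reads and shares, and 1.5-fold for unlabelled and total reads. The code was tested on simulated counts.

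Members and the 28 gene lists were chosen with earlier results of these data known. Genes named are those with a mean total of at least 200 that led each kind of change (6 for loss of label, 8 for gain and 6 for loss of unlabelled reads, 6 for kept label, 5 each for label replaced at a steady total, for dilution and for a fallen total with a kept share), the ends of each list, and MYC, MYB, HOXA9, MCL1, BCL2, CDK6, ACTB, GAPDH and LYZ. The metallothionein MT1X, the genes at the read minimum and the cell type markers were named apart from that rule, and 1 gene that the rule names is not reported here. Alternatives were TMM factors (edgeR 4.0.16), DESeq2 1.42.0 size factors, summed segments, other minimums, background subtraction, other folds and other library pairs.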

Additional observations from a re-analysis of the deposited data

How the results depend on the processing

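No paired analysis was possible because each time holds 1 library, so that compared times share a single number. With TMM factors the medians were -2.27 for labelled, 0.53 for unlabelled and 0.01 for total reads on the log2 scale, 232 genes lost unlabelled reads and 167 lost both. With DESeq2 factors these were -2.28, 0.52, 0.00, 242 and 171. Summing a gene's distinct segments gave medians of -2.11, 0.67 and 0.16, and -2.44 for the share. A mean total of 50 gave -2.19 for labelled reads, -2.49 for the share and 0.14 for total. A mean total of 500 left 3906 genes: label fell in 2795 and the share in 2851, unlabelled reads rose in 1903 and fell in 41, the classes held 1777 (label lost, unlabelled gained), 996 (label lost, unlabelled level) and 22 (both lost), and the medians were -1.68, 0.56, -1.92 for the share and 0.08 for total. With 1 labelled read at 2 h as the only minimum, 2687 genes kept label, 594 lost unlabelled reads, 331 lost both, and the medians were -1.91, 0.61, -2.16 for the share and 0.11 for total. Requiring 100 labelled reads at 2 h, label fell in 3757 genes and the share in 3795, the classes held 2382, 1335 and 40, and the medians were -1.98 and -2.22. With 1.5-fold throughout, 705 genes kept label. With 2-fold throughout, unlabelled reads rose in 2323 and fell in 54, and the classes held 2149, 4468 and 45. Subtracting the background without 4sU changed none of these summaries beyond its limits.

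Among other libraries, 12 h against 2 h gave medians of -4.03 for labelled, 0.69 for unlabelled, -4.20 for the share and 0.09 for total, with 453 genes keeping label and 172 losing both. For 8 h against 1 h they were -2.36, 0.87, -2.71 and 0.16, with 70 losing both. For 12 h against 1 h they were -4.26, 0.90 and -4.48, with 429 keeping label. A stricter minimum leaves fewer genes by construction. Another library pair changes both the span and the libraries, which cannot be told apart here, and other causes were not tested. Log2 changes turned direction in few named genes. Unlabelled TET2 reads gave 0.59 with summed segments. At 12 h against 2 h, total BAG3 gave -0.06, total DDX6 0.03 and unlabelled FOS 0.18. At 8 h against 1 h, AGPAT4 gave 0.87 for unlabelled and 0.42 for total reads, and unlabelled reads gave 0.68 for ANKRD28, 0.22 for ARRDC4 and 0.02 for CDC42EP4. At 12 h against 1 h, unlabelled ANKRD28 gave 0.34, total DDX6 0.29 and unlabelled PER2 0.14. Labelled changes of named genes kept their direction under each alternative listed wherever the change had been called. Depth limits genes with 20 to 40 labelled reads, for which a 2-fold change is close to counting error, and genes at 0 labelled reads, for which only a lower bound of the fold is had.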

Other observations

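Further gene lists are given beside the 81.6% of all genes that lost label and the 54.6% that gained unlabelled reads. Heat shock and chaperone genes gained unlabelled reads in 22 of 32 members (68.8%), and 15 of 32 lost label (46.9%). HSPH1, an HSP110 chaperone, had 392 unlabelled RPM at 8 h and 85.3 at 2 h, 4.6-fold higher (4.26 to 4.97), and its total was 274 without 4sU, 168 at 0 h and 359 at 12 h. BAG3, a co-chaperone, had 0.624 labelled RPM at 8 h and 14 at 2 h, 22.5-fold lower (10.6 to 57.1), while PDIA3, a protein disulfide isomerase, had 11.4 at 8 h and 11.2 at 2 h. Genes of the integrated stress response and amino-acid supply lost label in 28 of 33 members (84.8%, near the share of all genes) and gained unlabelled reads in 22 (66.7%). STC2, a secreted glycoprotein, had 25.2 unlabelled RPM at 8 h and 4.67 at 2 h, and TRIB3, a pseudokinase of that response, had 2 labelled reads at 8 h and 95 at 2 h, 59.3-fold lower (16 to 497). ASNS, asparagine synthetase, was called within 2-fold for label, with 21 labelled reads at 8 h and 22 at 2 h, 1.31-fold lower (0.687 to 2.5). Its labelled reads came to 3.55 RPM at 1 h and 0.482 at 12 h. Cholesterol genes lost label in 21 of 23 members (91.3%) and gained unlabelled reads in 9 of 24 (37.5%).

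Interferon-stimulated genes held both members that kept and members that lost label. Label fell in 22 of 31 (71%, against 81.6% of all genes) and unlabelled reads rose in 16 of 31 (51.6%, near the 54.6% of all genes). IFIT1, which binds viral RNA, had 0.356 labelled RPM at 8 h and 15 at 2 h, 42.2-fold lower (16.1 to 157), whereas IFITM2, a membrane restriction factor, had 19.2 at 8 h and 23.6 at 2 h. PARP9 had 59.3 unlabelled RPM at 8 h and 18.8 at 2 h, 3.15-fold higher (2.66 to 3.75). All 9 clock genes lost label, against 81.6% of all genes, at a median of -4.20 on the log2 scale. PER2, a repressor of the clock, had 1 labelled read at 8 h and 114 at 2 h, and CLOCK, its activator, had 53.9 unlabelled RPM at 8 h and 20.3 at 2 h. Hypoxia-responsive genes lost label in 14 of 17 members (82.4%, about the share of all genes). BHLHE40, a repressor on both the clock and the hypoxia list, had 1 labelled read at 8 h and 89 at 2 h, and 5.43 unlabelled RPM at 8 h and 19.9 at 2 h.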
